A study of Mus musculus with 2 samples.

Results

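MHC-II-high CNS-associated macrophages are macrophages of the borders of the brain that carry transcripts of the classical MHC class II genes. They were chosen here by the UMI counts (counts of unique transcript tags) of single barcodes. A member had at least 2000 UMIs, of which at most 10% were mitochondrial. The border macrophage genes Mrc1, F13a1, Cd163 and Ms4a7 together took at least 0.1% of its UMIs. The microglial genes Tmem119, P2ry12, Siglech, Gpr34 and Sall1 took under 0.2%, the endothelial genes Cldn5 and Flt1 under 0.1%, and the monocyte genes Ly6c2 and Plac8 under 0.05%. The last step asked that H2-Aa, H2-Ab1, H2-Eb1 and Cd74 together take at least 0.5%. This gave 203 members among 37387 deposited barcodes, 117 in the library labelled KO and 86 in the library labelled WT.

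The KO library came from CD200R1-/- mice and the WT library from C57BL/6J mice. All mice were 18 months old and untreated, and the number of mice pooled in each library is not stated. Brains were perfused and dissociated, and CD11b+ cells were taken on magnetic particles before 10x 3′ single-cell sequencing. The study title names CNS-associated macrophages, T cells and Parkinson's disease, while the labels of these mice give no disease model. With 1 library per genotype there is no replicate check, so genes were called higher or lower by size alone, at a ratio of at least 1.5, and no difference has a test. Intervals are 95%, cover counting error only, and treat UMIs as independent molecules.

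Border macrophages live in the perivascular spaces, the meninges and the choroid plexus. In mice they are commonly split into a scavenging type that carries the hyaluronan receptor LYVE1 and a type with much MHC class II, part of which is replaced from CCR2+ monocytes with age. MHC class II molecules present peptides of engulfed material to CD4 T cells. CIITA is the coactivator without which these genes stay almost silent. CD74 is the invariant chain that holds the peptide groove of the H2-A and H2-E pairs until peptide is loaded with the help of H2-DM.

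The promoters of class II genes share an X box and a Y box on which CIITA's partner factors assemble, and the Y box contains the inverted CCAAT motif CTGATTGG. RefSeq promoters (GRCm38.p6, from 250 bases before to 50 after the start) were searched on both strands. Those of H2-Ab1 and Cd74, 2 of the 4 class II genes of the rule, were not searched. The other 2, of H2-Aa and H2-Eb1, both held CTGATTGG. They are shown because these genes define the cells, each as 100 bases ending 11 bases before the start, in the direction of the gene, with the motif in capitals. H2-Aa lies at chr17:34287834-34287933 on the minus strand with the motif beginning 51 bases before the start. H2-Eb1 lies at chr17:34305757-34305856 on the plus strand with the motif beginning 62 bases before the start.
H2-Aa: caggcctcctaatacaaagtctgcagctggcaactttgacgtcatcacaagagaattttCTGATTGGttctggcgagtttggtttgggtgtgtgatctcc
H2-Eb1: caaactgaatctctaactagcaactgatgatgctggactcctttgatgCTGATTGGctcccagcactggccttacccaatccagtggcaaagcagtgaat
The motif stood in 4.1% of 32851 promoters of the same length, and among class II presentation genes outside the rule it stood in 2 of 11 promoters, those of H2-Eb2 and H2-Oa. A match describes the letters of the window only.

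The class II share of border macrophages was spread unevenly, with the most cells under 0.1% and the fewest between 0.3% and 0.5%. Of 321 KO border macrophages, 155 gave less than 0.1% of their UMIs to the 4 class II genes, while 33 lay between 0.1% and 0.3%, 16 between 0.3% and 0.5%, 18 between 0.5% and 1%, 28 between 1% and 2%, 47 between 2% and 4% and 24 at 4% or more. Of 253 WT border macrophages, 126 gave less than 0.1%, and the same ranges held 28, 13, 15, 17, 36 and 18 cells. The members closest to the threshold stood at 0.507% in KO and 0.536% in WT, and the closest non-members at 0.476% in KO and 0.481% in WT. Among members the median share was 2.52% in KO and 2.48% in WT, and the highest was 8.64% in KO and 6.83% in WT.

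**Figure D1:**
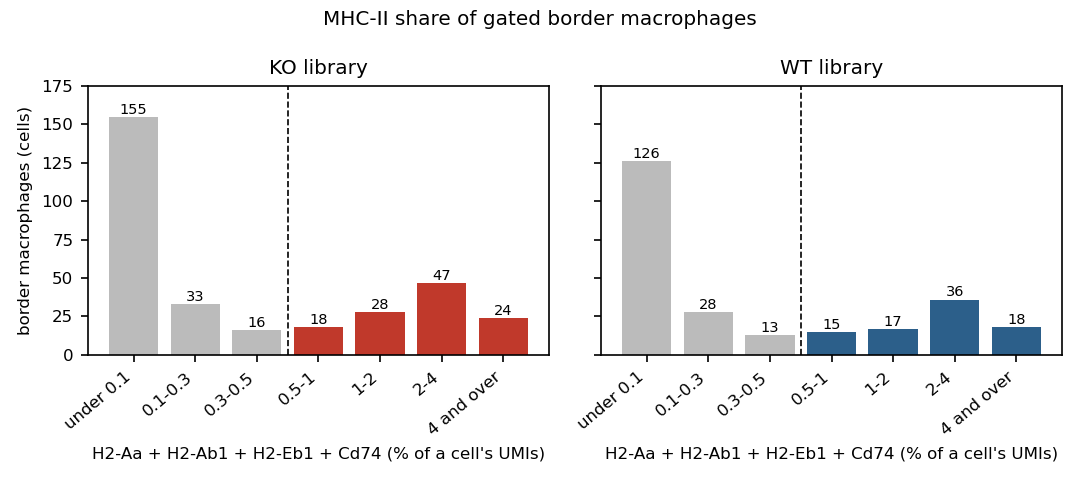
Border macrophages by the share of their UMIs from H2-Aa, H2-Ab1, H2-Eb1 and Cd74 (horizontal axis, in percent) and their number per range (vertical axis), KO left and WT right. The range under 0.1% holds the most cells, 155 in KO and 126 in WT, and the range from 0.3% to 0.5% the fewest, 16 in KO and 13 in WT.

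Members made up 36.4% of KO border macrophages (117 of 321, 31.2 to 42.0) and 34.0% of WT border macrophages (86 of 253, 28.2 to 40.2), a ratio of 1.07 (0.805 to 1.43). Among all barcodes that passed the depth and mitochondrial filters, they were 1.01% in KO (117 of 11573, 0.837 to 1.21) and 0.852% in WT (86 of 10091, 0.682 to 1.05), a ratio of 1.19 (0.890 to 1.59). Both ratios are within counting error of 1, and shares of a CD11b+ selection are not shares of the brain.

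The libraries held 131196245 UMIs (KO) and 127429919 UMIs (WT), and the members 614837 and 671426 of them. Depth per member differed, with a median of 4836 UMIs in KO members (2230 to 10659) and 6692 in WT members (2145 to 36358). The WT sums lean on a few deep barcodes: 8 of 86 WT members exceeded 12000 UMIs and held 24.9% of all WT member UMIs, and no KO member exceeded 12000. The 4 deepest, at 36358, 29362, 25731 and 19596 UMIs, stood near the class II threshold, at 0.638%, 0.685%, 0.909% and 0.536%. Comparisons of KO and WT members below were therefore repeated without barcodes over 12000 UMIs, with each cell given equal weight, and without the cell richest in the gene. The 2 libraries shared 103 barcode sequences, among them 1 KO member and 1 WT member, and none was a member in both.

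Cd200r1, the targeted gene, had 17 UMIs in KO members (27.6 CPM, counts per 1000000 UMIs) and 24 UMIs in WT members (35.7 CPM), a ratio of 0.774 (0.390 to 1.5). A 3′ tag may lie outside the deleted part, so these values do not check the genotype. Its ligand gene Cd200 had 7 UMIs in KO members and 14 in WT members. Of the 9 listed CD200 receptor and adaptor genes, 5 reached 20 UMIs and none differed 1.5-fold, with a median log2 ratio of -0.30. Over all genes with 20 UMIs 6.1% were higher and 9.14% lower in KO members, with a median of -0.03, so none among 5 says little. The SH2 phosphatase gene Inpp5d, which acts downstream of inhibitory receptors, had 625 CPM in KO members and 785 CPM in WT members.

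The cells carried the markers of their label. Mrc1, the mannose receptor CD206, had UMIs in 108 of 117 KO members and 82 of 86 WT members, at 1478 CPM in KO members and 1261 CPM in WT members. F13a1, the coagulation factor XIII A chain, had 1326 CPM in KO members and 1162 CPM in WT members, against 17.6 and 9.94 CPM in microglia of the same libraries. Ms4a7 had 546 CPM in KO members and 421 CPM in WT members. These genes chose the cells, as did the class II genes, and are given as a description. Border macrophages under the class II threshold had more Mrc1, F13a1 and Ms4a7 than members. There Mrc1 stood at 2522 CPM in KO and 2409 CPM in WT, F13a1 at 2241 and 2291 CPM, and Ms4a7 at 705 and 734 CPM. Beyond the rule, the genes highest over microglia in both libraries included Ccl8, a monocyte-attracting chemokine, with 854 CPM in KO members and 898 CPM in WT members, against 16.1 and 6.71 CPM in KO and WT microglia. Dab2, an endocytic adaptor, had 743 CPM in KO members and 553 CPM in WT members, against 22.2 and 19.2 CPM in microglia. The C-type lectin receptor gene Clec12a had 247 CPM in KO members and 256 CPM in WT members, against 5.97 and 3.55 CPM in microglia. Aoah, which deacylates bacterial lipopolysaccharide, had 348 CPM in KO members and 416 CPM in WT members, against 6.14 and 4.72 CPM in microglia. Border macrophages under the class II threshold carried these genes as well. There Ccl8 stood at 1325 CPM in KO and 670 CPM in WT, and Dab2 at 1339 and 1150 CPM. Clec12a stood at 135 and 137 CPM, and Aoah at 407 and 411 CPM. At the other end, Csmd3 had 56.9 CPM in KO members and 186 CPM in WT members, against 2672 and 2910 CPM in microglia. Ifi203, Pf4, Pde7b and Ccl7 completed the 8 highest genes, and S100a8, S100a9, Adamts1, Nav3, Atp8a2, Magi1 and Ifitm10 the 8 lowest. S100a8 and S100a9 are neutrophil markers: at 2000 UMIs per cell S100a8 was found in 2.85% of KO and 5.31% of WT microglia, and neutrophil markers took up to 15.0% (KO) and 16.2% (WT) of the UMIs of a single microglial barcode.

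Markers of other cell types were low but not absent. The membership rule capped Tmem119, P2ry12, Siglech, Gpr34, Sall1, Ly6c2, Plac8, Cldn5 and Flt1, which are among these markers. The microglial, monocyte and endothelial sums were therefore low in part by the choice of the cells. The microglia set beside them were gated for high shares of the same microglial genes. The 11 microglial markers summed to 3165 CPM in KO members and 3014 CPM in WT members, against 14358 and 14323 CPM in microglia, and all 11 were detected. The 10 dendritic cell markers summed to 228 CPM in KO members and 259 CPM in WT members, with Xcr1, Ccr7 and Snx22 at 0 UMIs, which allows up to 4.88 CPM in KO members and 4.47 CPM in WT members. Monocyte markers summed to 124 CPM in KO members and 81.9 CPM in WT members, of which Ms4a4c gave 119 and 76.0 CPM, and Chil3, F10 and Ace were at 0. B cell markers summed to 351 CPM (KO) and 496 CPM (WT) in all, T cell markers to 37.4 and 1.49 CPM, neutrophil markers to 124 and 140 CPM, and platelet and erythroid markers to 14.6 and 55.1 CPM. Endothelial markers summed to 233 CPM in KO members and 325 CPM in WT members, mural markers to 272 and 399 CPM, astrocyte markers to 259 and 222 CPM, oligodendrocyte markers to 132 and 130 CPM, and fibroblast markers to 42.3 and 8.94 CPM. Choroid plexus and ependymal markers were the exception, at 6716 CPM in KO members and 2659 CPM in WT members, nearly all from Ttr, the secreted thyroid hormone carrier transthyretin. Microglia of the same libraries held Ttr too, at 3980 CPM in KO and 2249 CPM in WT. Whether free RNA of the preparation contributes to the members' Ttr was not tested.

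Set beside the 204 KO and 167 WT border macrophages under the threshold, the members carried more of the class II machinery and of genes linked to recent monocyte origin, and less of the scavenging type. Because these classes were divided on a readout of the same cells, the following values describe the division. The rule genes themselves stood at 5164 CPM (KO) and 4496 CPM (WT) for H2-Aa in members, against 118 and 106 CPM in MHC-II-low cells, and at 10761 and 10491 CPM for Cd74, against 385 and 380 CPM. H2-Ab1 had 4601 and 3923 CPM in members, against 117 and 101 CPM, and H2-Eb1 had 5047 and 4672 CPM, against 84.5 and 68.2 CPM. Of 7947 genes measured, 124 (1.56%) were higher in members by at least 1.5-fold in both libraries and 223 (2.81%) lower.

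Ciita (chromosome 16, 10480059 to 10528418, plus strand, GRCm38) had 79.7 CPM in KO members and 76.0 CPM in WT members, against 2.46 and 0.822 CPM in MHC-II-low cells of KO and WT. At 2000 UMIs per cell it was found in 16.2% of KO members (10.1 to 24.2) and 11.6% of WT members (5.72 to 20.3), and in 0% and 0.0349% of endothelial cells. Without thinning it was found in 26.5% of KO members and 32.6% of WT members. The peptide-loading chains followed, H2-DMa with 408 CPM in KO members and 366 CPM in WT members, against 117 and 109 CPM, and H2-DMb1 with 290 and 252 CPM, against 58.3 and 64.9 CPM. These were the 3 of 9 class II presentation genes outside the rule that were higher in members in both libraries, and none was lower. Ctss, the cathepsin that trims the invariant chain, had 3482 CPM in KO members and 2800 CPM in WT members, against 2407 and 1913 CPM, short of 1.5-fold.

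Of the 17 measured genes of the monocyte-derived and MHC-II-type list, 10 were higher in members in both libraries and 2 lower, with median log2 ratios of 1.47 (KO) and 1.31 (WT). Ccr2, the receptor that brings monocytes into tissue, had 50 UMIs in KO members (81.3 CPM) and none in KO MHC-II-low cells, which makes it at least 33.0-fold higher against a limit of 3 UMIs. In WT it had 107 CPM in members, against 6.57 CPM. The natural killer receptor gene Klra2 had 203 CPM in KO members and 153 CPM in WT members, against 35.3 and 28.8 CPM. Slamf7, a receptor of the SLAM family, had 150 and 127 CPM in members, against 21.3 and 33.7 CPM. Alcam, an adhesion molecule, had 79.7 and 130 CPM in members, against 14.8 and 24.6 CPM, and Negr1, a neuronal-type adhesion molecule, had 177 and 182 CPM, against 43.5 and 37.8 CPM. The B cell chemokine gene Cxcl13 had 168 CPM in KO members and 209 CPM in WT members, against 17.2 and 22.2 CPM, but 1 KO member held 74 of its 103 UMIs and 1 WT member 45 of 140. Trerf1, Ms4a4c and Lsp1 completed the 12 highest genes.

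The scavenging Lyve1-type list showed the reverse, with 16 of 20 genes lower in members in both libraries, none higher, and median log2 ratios of -1.08 (KO) and -1.46 (WT). Lyve1 had 115 CPM in KO members and 58.1 CPM in WT members, against 254 and 366 CPM in MHC-II-low cells. The lectin genes of the Cd209 family were low throughout: Cd209f had 45.5 CPM in KO members and 84.9 CPM in WT members, against 398 and 403 CPM, and Cd209b had 22.8 and 23.8 CPM, against 204 and 243 CPM. These family members resemble each other in sequence, so reads could be split between them. Colec12, a scavenger receptor with a collagen-like stalk, had 52.0 CPM in KO members and 49.1 CPM in WT members, against 282 and 328 CPM. The eosinophil chemokine gene Ccl24 had 86.2 and 52.1 CPM in members, against 323 and 450 CPM, and Bmp2, a growth factor of the TGF-beta family, had 37.4 and 16.4 CPM, against 144 and 104 CPM. Cd209g, Cpne8, Ptprk, Egfl7, Acta2, Ednrb and Clec4n completed the 12 lowest genes. Acta2 is a mural cell marker.

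**Figure D2:**
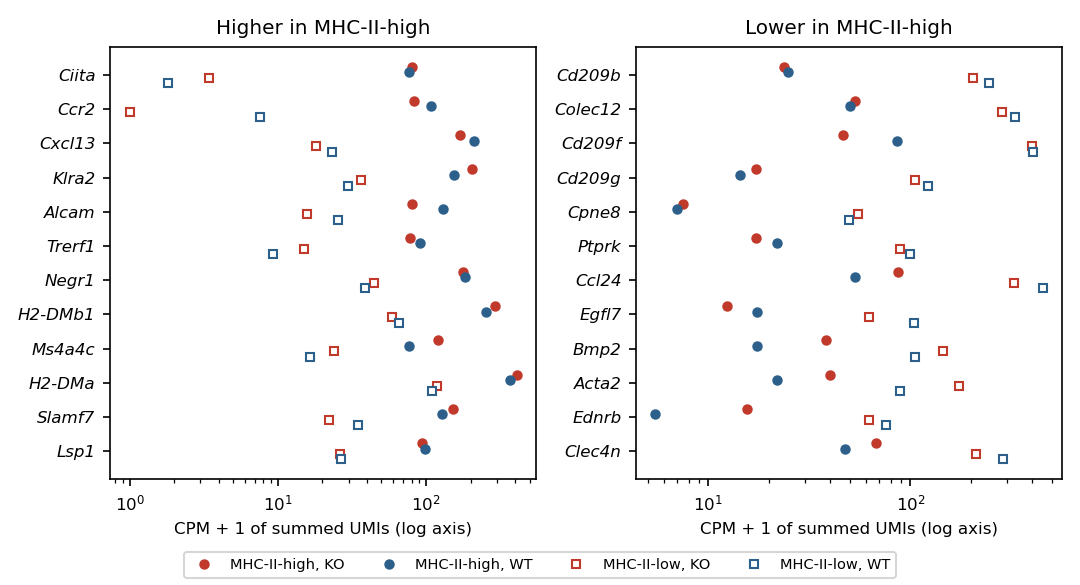
CPM + 1 on a log axis of the 12 genes highest (left) and the 12 lowest (right) in MHC-II-high (filled circles) against MHC-II-low border macrophages (open squares), KO in red and WT in blue. For Ciita and Ccr2 the members lie between 76.0 and 107 CPM and the MHC-II-low cells at 6.57 CPM or less, while for Cd209b and Colec12 the members lie at 52.0 CPM or less and the MHC-II-low cells at 204 CPM or more.

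Other lists are given beside the shares over all genes, 1.56% higher and 2.81% lower in members in both libraries. Of 21 lysosomal genes 2 were lower in members in both libraries, of 14 complement and Fc receptor genes 3 were lower and 1 higher, of 16 TREM2-APOE disease-associated genes 3 were lower, and of 19 MHC class I presentation genes 2 were higher. Of 12 inhibitory receptor genes 2 were higher, and of 8 iron genes 1 was lower. Chemokine and growth factor receptors had 3 of 10 higher and none lower, and chemokines had 2 of 17 higher and 4 lower.

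The joint presence of both sides in single cells was counted with short marker lists. Lyve1, Cd209f, Cd209b, Cd209g and Colec12 stood for the Lyve1 side and Ccr2, Plbd1, Klra2, Clec4b1 and S100a4 for the Ccr2 side, chosen after their values were seen. With each cell thinned to 2000 UMIs, 54 of 117 KO members and 36 of 86 WT members had a UMI of the Ccr2-side marker genes and none of the Lyve1-side marker genes, while 10 KO and 10 WT members had the reverse and 5 KO and 2 WT members had both. Neither was found in 48 KO members and 38 WT members, a figure bound to the depth of 2000 UMIs. Among MHC-II-low cells, 126 of 204 in KO and 109 of 167 in WT had Lyve1-side UMIs alone, 13 in KO and 8 in WT had both, and 3 in KO and 5 in WT had Ccr2-side UMIs alone. Cells with both were thus the smallest class among members, while among MHC-II-low cells they outnumbered those with the Ccr2 side alone. The number with both to be expected from the frequency of each side was not computed, so these counts show no exclusion.

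Within the members some of these genes were graded with the amount of class II transcripts. Ciita stood at 18.2, 18.5, 123 and 141 CPM in KO members with 0.5 to 1%, 1 to 2%, 2 to 4% and at least 4% of class II UMIs, and at 27.4, 42.6, 95.3 and 146 CPM in the same ranges of WT members. These values rest on only 2, 3, 30 and 14 UMIs in KO and 5, 5, 25 and 16 UMIs in WT. Lyve1 ran the other way, at 592, 37.1, 0 and 0 CPM in KO members and 186, 17.0, 0 and 27.5 CPM in WT members. The Lyve1 UMIs thus came mainly from the members nearest to the threshold, 8 KO and 6 WT cells in all. Ccr2 stood at 27.3, 30.9, 90.2 and 201 CPM in KO members, and at 11.0, 153, 179 and 45.8 CPM in WT members, where the highest range stood below the 2 before it. Its UMIs were 3, 5, 22 and 20 in KO and 2, 18, 47 and 5 in WT. The Lyve1-type list summed to 11108, 7363, 5583 and 4847 CPM over the same ranges in KO, and to 7015, 7842, 5465 and 4522 CPM in WT. Its Spearman correlation with the class II share across cells was -0.45 over 117 KO members and -0.27 over 86 WT members. That of the monocyte-derived list was 0.29 in KO and 0.04 in WT. These cells share a library, and class II UMIs take up part of a fixed number of UMIs per cell, so the correlations are descriptions. The 4 deepest WT members all lay in the 0.5 to 1% range, and the values per range were not repeated without deep barcodes.

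KO and WT members differed in a set of interferon genes and, in the other direction, in immediate-early and glucocorticoid-induced genes, while chemokine genes went both ways. Of 7210 genes with at least 20 UMIs over both libraries' members, 440 (6.1%) were higher in KO by at least 1.5-fold and 659 (9.14%) lower, with a median log2 ratio of -0.03 over all of them. Past 1.5-fold in the sum and in each of the 3 repeats described above were 288 of the higher and 346 of the lower genes. In MHC-II-low cells, with 1218451 UMIs in KO and 1217051 in WT, 332 of 9236 genes (3.59%) were higher in KO and 308 (3.33%) lower. Log2 ratios are of CPM plus 10 and understate the difference of low genes.

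The genes lowest in KO members, of which 11 are given, show how far a single barcode can set a sum. For 9 of these 11 genes 1 WT cell held over 50% of the UMIs, and for 6 of the 11 the richest cell was the deepest WT member. Rnase2a, an eosinophil-type ribonuclease, had 59 of 60 WT UMIs in 1 cell, Uck2, a uridine kinase, 52 of 54, the lactate and fatty acid sensor gene Gpr84 65 of 79, and Csf1, a macrophage growth factor, 50 of 80. Without barcodes over 12000 UMIs the log2 ratio was 0.21 for Csf1, 0.14 for Ptprg, -0.04 for Lpl and -0.08 for Uck2. Of the other named genes, Adgrl3 had 31 of 55 WT UMIs in 1 cell, Fat3 54 of 96, Tnfsf9 24 of 46, Pparg 39 of 66 and Sgk1 32 of 117.

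**Figure D3:**
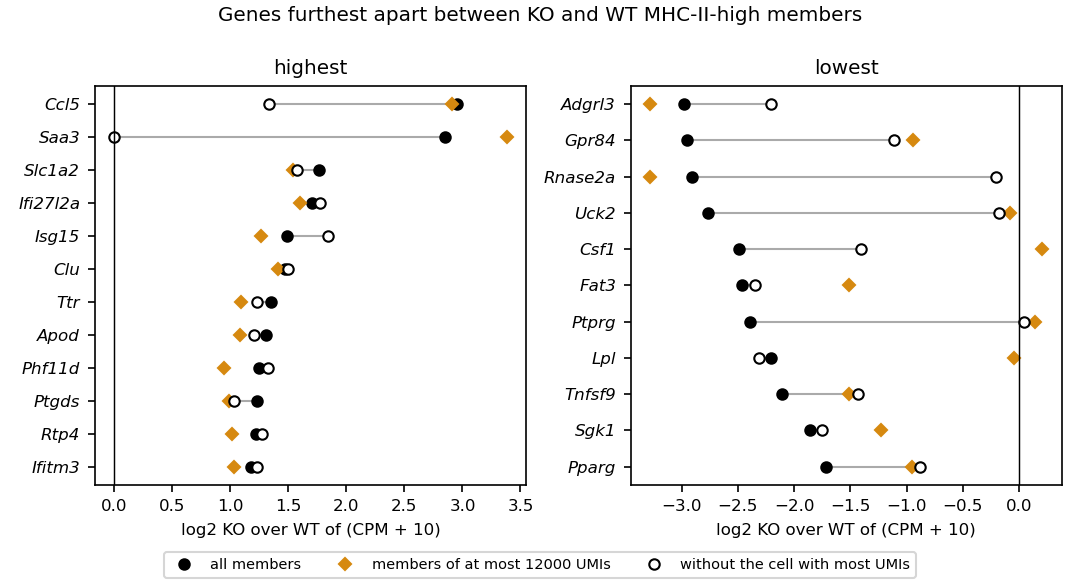
Log2 ratio of KO over WT (CPM + 10) for the 12 highest genes (left) and 11 of the lowest (right) over all members (filled circles), members of at most 12000 UMIs (diamonds) and without the cell richest in the gene (open circles). Most points of the 12 highest genes stay together, with Ccl5 and Saa3 apart, while among the lowest genes Rnase2a, Uck2 and Ptprg come close to 0 without their richest cell and Csf1, Lpl, Uck2 and Ptprg without deep barcodes.

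Some genes lower in KO were spread over many cells, and they are named after their values were seen because they passed 1.5-fold in every repeat. Klf4, a zinc finger transcription factor, had 115 CPM in KO members (UMIs in 31 of 117) and 331 CPM in WT members (52 of 86), a ratio of 0.349 (0.263 to 0.458). Ccl2, the main ligand of CCR2, had 194 CPM in KO members and 596 CPM in WT members, a ratio of 0.325 (0.262 to 0.400). The urokinase gene Plau had 21.1 CPM in KO members and 89.4 CPM in WT members. Cd36, a scavenger receptor for oxidised lipid, had 133 CPM in KO members and 360 CPM in WT members.

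Among the 12 genes highest in KO members, 11 passed 1.5-fold in the sum and every repeat. Ifi27l2a, Isg15, Phf11d, Rtp4 and Ifitm3 are interferon-induced, and Slc1a2, Clu, Ttr, Apod and Ptgds are known from astrocytes, choroid plexus or meninges. Slc1a2, the astrocyte glutamate transporter, had 94.3 CPM in KO members and 20.9 CPM in WT members, and Ttr had 6480 and 2529 CPM. Ptgds, the prostaglandin D synthase of meninges and choroid plexus, had 304 CPM in KO members and 124 CPM in WT members. The part of carried-over RNA in these 5 genes was not tested. Ccl5 had 125 CPM in KO members and 7.45 CPM in WT members, with 61 of 77 KO UMIs in 1 cell, and the acute-phase gene Saa3 had all of its 58 KO UMIs in 1 cell. Npl, an enzyme of sialic acid breakdown, had 125 CPM in KO members and 53.6 CPM in WT members and is named after its values were seen.

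Type I interferon binds a receptor that activates a transcription factor complex with STAT2 and IRF9, which binds response elements with repeats of GAAA. All 29 listed genes in the matrix were measured in members. In KO 13 were higher and 3 lower, beside 6.1% and 9.14% over all genes. The median log2 ratio was 0.56, against -0.03 over all genes. In every repeat 12 of the 13 were higher (Ddx58 fell short with equal weights), and none was lower in all of them. For the MHC-II-low cells of the same libraries the list gave 27 higher and none lower, with a median of 0.88. All genes of those cells gave 3.59% higher and 3.33% lower. Microglia summed to 3299 CPM for the list in KO and 1101 CPM in WT and endothelial cells to 8653 and 3298 CPM, so KO stood above WT in these classes as well. Members themselves summed to 7784 CPM in KO and 3859 CPM in WT.

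Ifi27l2a (chromosome 12, 103442167 to 103443680, minus strand, GRCm38) was the interferon gene with the highest ratio. It had 1833 CPM in KO members and 556 CPM in WT members, a ratio of 3.30 (2.93 to 3.72). At 2000 UMIs per cell it was found in 86.3% of KO members (78.7 to 92.0) and 48.8% of WT members (37.9 to 59.9), and unthinned in 96.6% and 72.1%. Endothelial cells thinned in the same way gave 35.3% in KO and 11.5% in WT. Isg15, a ubiquitin-like modifier, had 156 CPM in KO members and 49.1 CPM in WT members, a ratio of 3.18 (2.12 to 4.87). Ifitm3, which blocks the entry of viruses, had 1613 and 706 CPM, a ratio of 2.29 (2.05 to 2.56). Bst2, tetherin, which holds budding viruses at the cell surface, had 1098 CPM in KO members and 481 CPM in WT members, a ratio of 2.28 (2.00 to 2.61). Irf7, the transcription factor that amplifies interferon production, had 132 CPM in KO members and 65.5 CPM in WT members. Oasl2, Xaf1, Usp18, Ifi44, Lgals3bp, Rtp4, Ddx58 and Trim30a were the other 8 above 1.5-fold.

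Promoters of 22 of the 30 listed interferon genes were searched. Of these, 13 held GAAA, any 2 bases and GAAA again on either strand, against 3.44% of 32851 promoters. The windows of 2 genes of the list that carry the motif more than once are shown. They run in the direction of the gene, with the matched stretch in capitals. Both genes were higher in KO members. Ifit1, Ifit3, Ifitm3 and Oas1a also hold 2 matches each and are not shown. Isg15 lies at chr4:156200829-156200928 on the minus strand, with 3 overlapping matches that begin 78 to 66 bases before the start. Bst2 lies at chr8:71537543-71537642 on the minus strand, with 2 overlapping matches that begin 130 and 124 bases before it.
Isg15: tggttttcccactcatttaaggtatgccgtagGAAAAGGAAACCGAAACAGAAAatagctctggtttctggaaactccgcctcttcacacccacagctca
Bst2: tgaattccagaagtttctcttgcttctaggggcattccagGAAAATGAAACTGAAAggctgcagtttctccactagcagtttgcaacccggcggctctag
The list was chosen as interferon genes, so a surplus of this motif is a property of the list.

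**Figure D4:**
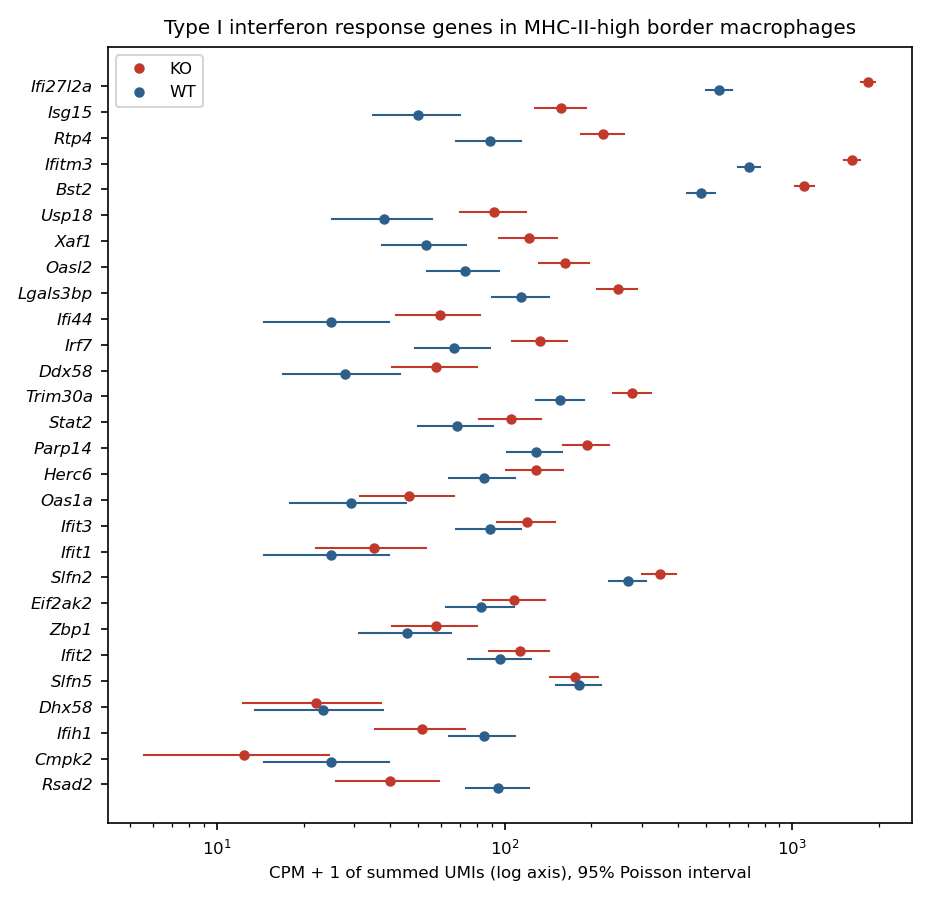
CPM + 1 on a log axis of 28 interferon genes summed over KO members (red) and WT members (blue), with bars for 95% Poisson intervals. Ifi27l2a, Ifitm3 and Bst2 lie apart between the libraries, while Rsad2, Ifih1 and Cmpk2 lie lower in KO.

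The rest of the list was mixed. Ifit1, Ifit2, Ifit3, Stat2 and Parp14 had ratios between 1.18 and 1.55 that did not reach 1.5-fold after 10 CPM was added. Rsad2, the antiviral enzyme viperin, had 39.0 CPM in KO members and 93.8 CPM in WT members, but 49 of its 63 WT UMIs came from 1 cell, and without the richest cell of each library the log2 ratio was 0.23. The RNA sensor gene Ifih1 had 50.4 CPM in KO members (28 cells) and 83.4 CPM in WT members (27 cells), and Cmpk2 had 11.4 and 23.8 CPM.

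Per cell the interferon list was spread widely in KO and concentrated in WT. At 2000 UMIs per cell the list gave a median of 13 UMIs in KO members (range 2 to 50) and 5.5 in WT members (0 to 52). The 5 richest cells held 11.4% of these UMIs in KO and 27.5% in WT. The ranges overlap over their whole length, and MHC-II-low cells had medians of 12 in KO and 5 in WT. Across the class II ranges in rising order, the list summed to 6625, 7764, 7794 and 9071 CPM in KO members and 4558, 4027, 3308 and 3835 CPM in WT members. Its Spearman correlation with the class II share was 0.01 in KO and -0.19 in WT.

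**Figure D5:**
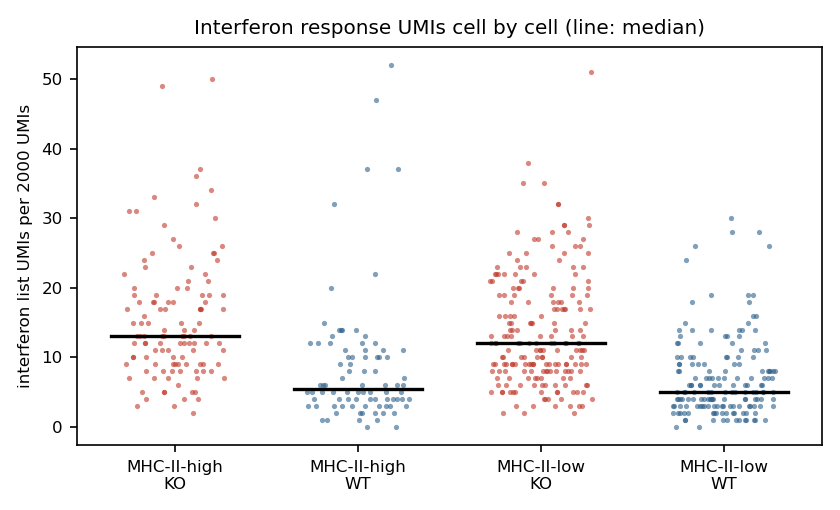
UMIs of the interferon list per cell after thinning to 2000 UMIs (vertical axis), with each point a cell, for members and MHC-II-low cells of KO (left) and WT (right) in each pair. The medians are 13 and 5.5 in members and 12 and 5 in MHC-II-low cells, and the highest WT member, at 52, lies above the highest KO member, at 50.

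MHC class II genes differed little between the libraries, and some class I presentation genes were higher in KO members. None of the 4 class II rule genes differed 1.5-fold, with ratios of KO over WT from 1.03 (0.992 to 1.06) for Cd74 to 1.17 (1.11 to 1.24) for H2-Ab1. These 4 genes chose the members in both libraries by the same cut, so their likeness is partly set by the choice and is only a description. None of the 7 measured class II genes outside the rule differed 1.5-fold either. Ciita had a ratio of 1.05 (0.694 to 1.58). March1, the ubiquitin ligase that removes class II from the surface, had 255 CPM in KO members and 372 CPM in WT members. Of 19 class I presentation genes 4 were higher in KO and none lower, with a median log2 ratio of 0.32, and 3 were higher in every repeat. Over all genes 6.1% were higher and 9.14% lower. In MHC-II-low cells 2 of the 19 were higher in KO and none lower, with a median of 0.21, beside 3.59% and 3.33% of all genes there. Psme1, a proteasome activator subunit, had 356 CPM in KO members and 189 CPM in WT members, and the immunoproteasome subunit gene Psmb9 had 137 and 84.9 CPM, short of 1.5-fold without deep barcodes (log2 ratio 0.53). Erap1, which trims peptides for class I, had 47.2 CPM in KO members and 16.4 CPM in WT members, and H2-Q6 had 61.8 and 29.8 CPM, though its near-identical neighbours may share reads. B2m, the common light chain, had 2752 and 2210 CPM.

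Costimulation and adhesion genes leaned lower in KO, with 1 of 11 higher, 5 lower and a median log2 ratio of -0.25. Beside this list and the interferon-gamma-linked one below, 6.1% of all genes were higher and 9.14% lower. Cd83, which stabilises class II at the surface, had 786 CPM in KO members (84 cells) and 1518 CPM in WT members (73 cells), a ratio of 0.518 (0.464 to 0.577). In MHC-II-low cells it stood at 790 CPM in KO and 542 CPM in WT. Cd80, a ligand of CD28, had 27.6 CPM in KO members and 8.94 CPM in WT members, on 17 and 6 UMIs. Vcam1 had 429 and 666 CPM, and Icam1, Cd274 and Tnfsf9 were also lower. In every repeat 3 of these 5 stayed past 1.5-fold, and Vcam1 and Cd274 did not. Of 12 measured interferon-gamma-linked genes 2 were higher (Ccl5 and Irgm2) and 2 lower (Iigp1 and Tgtp2), with a median of 0.04. Without barcodes over 12000 UMIs 4 were lower and the median was -0.19. The GTPase gene Iigp1 had 97.6 CPM in KO members and 226 CPM in WT members.

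Chemokine genes divided. Of 18 measured, 4 were higher in KO members (Ccl5, Cxcl2, Pf4 and Ccl24) and 4 lower (Ccl2, Ccl3, Ccl4 and Cxcl1), with a median log2 ratio of -0.32. Without barcodes over 12000 UMIs 3 were higher and 6 lower, and with equal weight per cell the median was -0.02. Over all genes 6.1% were higher and 9.14% lower. In MHC-II-low cells 6 of 18 chemokine genes were higher in KO and 3 lower, with a median of 0.13. All genes of those cells gave 3.59% higher and 3.33% lower. Ccl4, a chemokine of activated macrophages, had 618 CPM in KO members and 1805 CPM in WT members, a ratio of 0.342 (0.304 to 0.385), and 1 WT cell held 479 of its 1212 UMIs. Without barcodes over 12000 UMIs it stood at 618 CPM in KO members and 1272 CPM in WT members. Ccl3 had 605 CPM in KO members and 1261 CPM in WT members, each with UMIs in 67 cells. Cxcl2, a neutrophil chemoattractant, had 355 and 159 CPM, from 19 KO and 12 WT cells. Pf4 had 1013 and 529 CPM. Of 10 chemokine and growth factor receptor genes, Cxcr4 was lower in KO and none higher, near the 9.14% lower over all genes.

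Of the 11 measured inflammatory cytokine and NF-kB genes, 4 were lower in KO members and 1 higher, with a median log2 ratio of -0.51. Over all genes 9.14% were lower and 6.1% higher. In MHC-II-low cells 3 of 12 genes of this list were higher in KO and 1 lower, with a median of 0.14, beside 3.59% and 3.33% of all genes there. Il1b had 127 CPM in KO members (18 cells) and 283 CPM in WT members (23 cells), and 25.4 CPM in KO and 111 CPM in WT MHC-II-low cells. Tnf had 111 and 249 CPM in members, with 67 of 167 WT UMIs in 1 cell. Il1a and Nlrp3 were also lower, and Il10 was the higher one, on 17 KO and 9 WT UMIs. Without barcodes over 12000 UMIs 1 of the 11 was lower and the median was -0.21, with log2 ratios of -0.23 for Tnf, -0.01 for Il1a and -0.21 for Nlrp3.

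Immediate-early and dissociation genes, which respond within minutes to stimulation and to enzymatic dissociation of tissue, had 5 of 19 lower in KO members and none higher, with a median log2 ratio of -0.47. Klf4, Egr1, Ier2, Fosb and Junb were the lower ones, beside 9.14% lower over all genes. In every repeat 4 of the 5 were lower, with Junb just short under equal weights, and without barcodes over 12000 UMIs 7 of the 19 were lower. Egr1 had 327 CPM in KO members and 584 CPM in WT members, and Junb had 846 and 1305 CPM. The MHC-II-low cells had 3 of 19 lower, at a median of -0.10, beside 3.33% lower over all of their genes. Handling of the preparations and genotype cannot be told apart with 1 library each.

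Glucocorticoid-induced genes had 6 of 13 lower in KO members, 2 higher, and a median log2 ratio of -0.47, and all 6 were lower in every repeat. The shares over all genes were 9.14% lower and 6.1% higher. Zbtb16 (chromosome 9, 48654297 to 48836222, minus strand, GRCm38), a zinc finger repressor, had 114 CPM in KO members and 280 CPM in WT members, a ratio of 0.407 (0.304 to 0.538). At 2000 UMIs per cell it was found in 12.0% of KO members (6.70 to 19.3) and 37.2% of WT members (27.0 to 48.3), unthinned in 29.9% and 68.6%. Endothelial cells gave 32.9% in KO and 50.1% in WT, the same direction in another cell type. Fkbp5, a co-chaperone of the glucocorticoid receptor, had 410 CPM in KO members and 701 CPM in WT members, a ratio of 0.584 (0.499 to 0.682). Sgk1, Ddit4, Klf9 and Per1 were the other 4. The metal-binding Mt1 and Mt2 were higher, at 784 and 496 CPM for Mt1, but without deep barcodes their log2 ratios were 0.51 and 0.55, short of 1.5-fold. The MHC-II-low cells had 3 of 13 lower and a median of -0.26, beside 3.33% lower over all of their genes. Fkbp5 stood there at 438 CPM in KO and 762 CPM in WT.

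The lipid list was lower in KO members in part, while lysosomal, complement and Fc receptor genes stayed within 1.5-fold. In lipid and cholesterol handling 6 of 15 were lower in KO members and 1 higher, with a median log2 ratio of -0.28, beside 9.14% lower and 6.1% higher over all genes. Lpl, Pparg, Cd36, Abcg1 and Ch25h were among the lower genes. In every repeat 4 were lower, and Lpl and Abcg1 were not. Abcg1, a cholesterol exporter, had 22.8 CPM in KO members and 71.5 CPM in WT members, with 21 of its 48 WT UMIs in 1 cell and a log2 ratio of -0.42 without deep barcodes. Of 16 TREM2-APOE genes 5 were lower (Csf1, Lpl, Spp1, Cd9 and Lgals3). Without barcodes over 12000 UMIs 1 was lower, and in every repeat none was. None of 14 complement and Fc receptor genes, 21 lysosomal genes, 12 inhibitory receptor genes, 12 Parkinson disease genes and 3 cell cycle genes differed 1.5-fold, with medians of 0.14, -0.06, -0.19, -0.12 and 0.22. Lrrk2, the kinase gene linked to inherited Parkinson disease, had 9 UMIs in KO members and 11 in WT members, too few to compare. Of 8 iron genes 1 was lower, the iron exporter gene Slc40a1, with 48.8 CPM in KO members and 86.4 CPM in WT members. A single cell held 42 of its 58 WT UMIs, and without deep barcodes the log2 ratio was 0.64.

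Most identity genes of the macrophages stayed within 1.5-fold, with exceptions among the Lyve1-type genes. Their counts stand beside 6.1% higher and 9.14% lower over all genes. The 4 border macrophage genes of the rule had ratios of KO over WT from 1.13 to 1.30, and none differed 1.5-fold. They chose the cells in both libraries, so these ratios are only a description. Of 19 measured Lyve1-type genes 3 were higher in KO (Pf4, Lyve1 and Ccl24) and 3 lower (Cd209f, Fcna and Cd36), with a median log2 ratio of 0.03. In the sum and every repeat 2 of these stayed higher (Pf4 and Lyve1) and 1 lower (Cd36). Without deep barcodes the log2 ratio of Fcna was 0.11 and that of Ccl24 0.35, and without the richest cells that of Cd209f was -0.27. Of 17 monocyte-derived genes 2 were higher (Mgl2 and Clec4b1) and 1 lower (Lgals3), with a median of 0.10. Mgl2, a galactose-binding lectin, had 197 CPM in KO members and 115 CPM in WT members, with a log2 ratio of 0.38 without deep barcodes, where that of Lgals3 was -0.21.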

How the data were processed

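The authors deposited unnormalised UMI counts from Cell Ranger 7.0.1 (named in the matrix headers). The submitters' processing notes also name STAR, GRCm38 and Seurat 3.1.1. Each matrix lists 32285 genes. The members, gene lists and gates were chosen with earlier results of these data known. Members' UMIs were added up within each library and scaled to 1000000 (CPM). Ratios for calls are of CPM plus 10, at least 1.5, with at least 20 UMIs over both libraries (for the class comparison, in each). Named genes are the 12 highest and 12 lowest with at least 50 UMIs per comparison (8 against microglia), without ribosomal, mitochondrial, sex-linked, predicted and rule genes, plus markers and the ends of each list. Intervals are exact Poisson and Clopper-Pearson. Thinning kept 2000 UMIs per cell. No doublet caller was run, and the gates limit other types. As an alternative, barcodes with over 0.1% of the markers of another type were left out (21 KO and 19 WT members). The types were dendritic, B and T cells, neutrophils, mural cells, astrocytes, oligodendrocytes, fibroblasts, and platelets with erythroid cells. Microglial, monocyte, endothelial, choroid plexus and ependymal markers were not used for this. Choroid plexus and ependymal markers passed 0.1% in 117 KO and 81 WT members, and microglial markers in 112 and 82. The limit of 12000 UMIs and leaving out the richest cell were added after the data were seen. The calling steps were tested on simulated data. Python 3.11.15, numpy 2.4.6, scipy 1.17.1, pandas 2.3.3 and matplotlib 3.10.9 were used. Positions are from GENCODE vM21. A few genes are not reported here.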

Additional observations from a re-analysis of the deposited data

Results flagged for a closer look

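Listed genes with at least 50 UMIs in members and in MHC-II-low cells were screened for opposite directions between the libraries. For 4 of them both classes passed 1.5-fold, in opposite directions, and this difference was not tested. Over all genes 6.1% were higher and 9.14% lower in KO members, and 3.59% and 3.33% in MHC-II-low cells. Opposite pairs were not counted over all genes, so whether 4 is many cannot be told. Genes outside these limits could also go opposite ways, as Cd83 did. The log2 ratio of KO over WT was -1.08 for Rsad2 in members and 1.70 in MHC-II-low cells, -0.63 for Ifih1 and 1.03, -1.14 for Iigp1 and 1.29, and -0.88 for Spp1 and 0.77. For Rsad2, 1 WT member held 49 of 63 UMIs, and for Spp1, 1 WT member held 29 of 48.

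Markers of choroid plexus and ependyma, outside the compared lists, summed to 6716 CPM in KO members and 2659 CPM in WT members.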

How the results depend on the processing

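The ratio of member shares stayed at 1.00 to 1.10 except with microglial genes under 0.05% of UMIs, where it was 1.52 on 28 KO and 11 WT members. There the interferon median was 1.55 (0.44 to 0.89 otherwise) and 424 genes were lower in KO. Counts moved with the other settings. Genes higher in KO numbered 695 and 58 with 1 and 50 CPM added, 1060 when thinned, 824 with no UMI minimum and 63 at 100 UMIs. Genes lower in KO numbered 141 with 50 CPM added, 1222 when thinned, 1184 with no minimum and 131 at 100 UMIs. Genes higher in members than in MHC-II-low cells numbered 195 and 46 with 1 and 50 CPM added, 219 when thinned and 41 at 100 UMIs, and genes lower in members 388, 89, 454 and 106. Without barcodes over 12000 UMIs 489 genes were higher and 488 lower in KO. Among the genes ranked highest or lowest, reversed log2 ratios of KO over WT were those of Csf1 (0.10 at a class II share of 1%, 1.51 with microglial genes under 0.05%, 0.21 without deep barcodes), Ptprg (0.15 at 1%, 0.51 without mixed barcodes, 0.14 without deep barcodes, 0.0401 without its richest cell), Uck2 (0.69 with microglial genes under 0.05%, 0.51 thinned), Rnase2a (1.16) and Tnfsf9 (0.18), both with microglial genes under 0.05%. Acta2 in members over MHC-II-low cells of KO was 0.0485 with border genes at 0.2% or more and 0.46 without mixed barcodes. The causes were not tested. Values against microglia were not recomputed. No paired analysis was possible because each genotype has 1 library and no replicate number. Depth limits genes under 20 UMIs.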
